A study of Mus musculus with 6 samples.

Results

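Cyclins and their kinase partners were taken from the deposited gene table by symbol, and all 10 that had been listed were found among its 16440 genes. They were the D-type cyclins Ccnd1, Ccnd2 and Ccnd3, the E-type cyclins Ccne1 and Ccne2, the later cyclins Ccna2 and Ccnb1, and the kinases Cdk2, Cdk4 and Cdk6. All 10 also passed the filter on low values and entered the test with 14595 genes in all. RNA was sequenced from 2 populations of FVB N/J mouse bone marrow, with 3 biological replicates each. Normal myeloid progenitors (MPs) were sorted as Lin-Sca-1-c-Kit+ cells, without treatment. The leukemic population was GFP-labeled c-Kit+ APL progenitors, also untreated, from acute promyelocytic leukemia that hMRP8-PML/RARα transgenic mice develop and that was passed on by transplantation into syngeneic recipients. The hMRP8 promoter drives the PML/RARα fusion in myeloid cells, and GFP came from the retroviral vector MigR1. The labels give no age, and neither they nor the methods say whether the replicates came from separate mice or how many primary leukemias were used.

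A cyclin is the regulatory subunit that switches on a cyclin-dependent kinase (CDK), and successive cyclins carry the cell from G1 phase through DNA replication into mitosis. The D-type cyclins answer to growth factors and pair with Cdk4 and Cdk6, which phosphorylate the retinoblastoma protein and so release E2F transcription factors. The E-type cyclins then pair with Cdk2 to start S phase, Ccna2 serves S and G2 phase, and Ccnb1 with Cdk1 drives entry into mitosis. In blood progenitors the D-type cyclins are largely interchangeable, whereas Ccnd3 and Cdk6 are known for roles in erythroid and lymphoid cells and in leukemia.

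Total fragments before scaling ran from 20608715 to 28382785 per library, so counting error was small for all members except the D-type cyclins that were nearly silent in APL. The variance between 2 libraries of a group was 3.30 to 13.7 times that of counting alone, for the median gene, and MP replicate 3 stood apart from both other MP replicates (13.5 and 13.7 times). The labelled cell types were checked against their markers. Kit had between 70.6 and 74.5 FPKM (fragments per unit of transcript length and of library size) in normal MPs. In APL progenitors it had between 39.6 and 40.7. Ly6a, which encodes Sca-1, had 0.955 to 1.59 FPKM in normal MPs and 2.02 to 2.37 in APL progenitors. Kit was called lower in APL progenitors (log2 fold change −0.85) and Ly6a was called higher (0.68, limma adjusted p = 0.043). The summed FPKM of 5 primary granule genes (Mpo, Elane, Prtn3, Ctsg and Ms4a3) was 8770 to 9920 in normal MPs and 24186 to 28629 in APL progenitors. The 12 erythroid markers summed to 1627 to 2117 FPKM in normal MPs and to 14.3 to 25.9 in APL progenitors, and all 10 that were tested were lower there. The 6 megakaryocyte markers summed to 68.8 to 104 and to 3.53 to 4.83 FPKM, the 8 lymphoid markers to 20.5 to 29.2 and to 0.455 to 0.716, the 6 monocyte and dendritic markers to 73.1 to 88.5 and to 21.4 to 22.5, the 4 mast cell and basophil markers to 49.0 to 68.4 and to 37.1 to 42.6, and the 4 stem cell markers to 89.6 to 121 and to 1.40 to 2.09. Within these lists Ccr2 (log2 fold change 1.19) and Mcpt8 (1.13) were called higher in APL progenitors, against the direction of their sums, and Mcpt8, at 35.5 to 40.3 FPKM, made up most of the mast cell and basophil sum there. The 7 neutrophil markers summed to 11915 to 18532 FPKM in normal MPs and to 45779 to 59670 in APL progenitors, mostly through S100a8. Of these 7, S100a8 and S100a9 were called higher, Ltf and Ngp were called lower (−1.42 and −1.46), and the median log2 fold change was −0.04. Among the defining markers of the other lineages in APL progenitors, Klf1 was at 0.521 FPKM or less and Rag1 at 0 in every library. Rag1 was already low in normal MPs (0.0884 to 0.126 FPKM), where Dntt, at 19.6 to 27.8 FPKM, made up most of the lymphoid sum. Cd34, at 83.9 to 112 FPKM, made up most of the stem cell sum in normal MPs. Most of the erythroid sum there was Car1, at 1206 to 1677 FPKM. In bulk RNA, fewer cells of a type cannot be told apart from less RNA per cell. The part of the cell types in the results below was not tested.

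In all, 4 of the listed genes, Ccnd1, Ccnd2, Ccne1 and Ccna2, were downregulated in APL progenitors by more than 1.5-fold at an adjusted p under 0.05 (limma, with Benjamini-Hochberg adjustment across the 14595 genes). This makes 4 of 10, while 24.4% of all genes tested passed the same rule downward. None passed it upward, against 21.7% of all genes (0 members passed at an unadjusted p under 0.05 with this fold as well). Without the fold threshold, 6 of 10 passed downward, as did 37.3% of all genes, and 1 of 10 upward, as did 29.7%. The 3 APL values lay wholly below the 3 MP values for 6 members (39.8% of all genes), wholly above them for 1 (31.1%), and the groups overlapped for 3. The median log2 fold change of the members was −0.37, and that of all genes tested was −0.10. Leaving out MP replicate 3 left the same 4 genes called downward and none upward. With 10 genes these counts are a description, and the values of each gene follow.

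**Figure D1:**
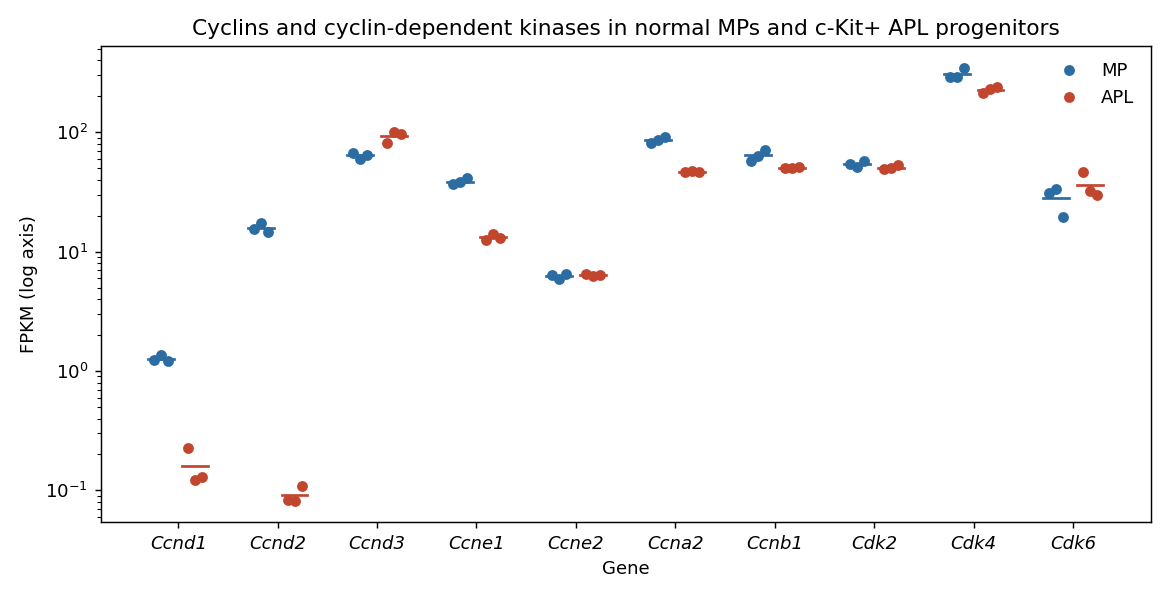
FPKM of each cyclin and kinase on a log axis, with 1 point per library (MP in blue, APL in red) and a bar at the mean of 3. Ccnd2 falls from 15.9 to 0.0915 FPKM, whereas Ccnd3 sits higher in APL progenitors and Ccne2 is at the same height in both groups.

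Ccnd2, cyclin D2, a D-type cyclin whose gene lies on chromosome 6 from 127125162 to 127152188 (RefSeq gene, GRCm38), was all but lost from APL progenitors. It had 15.6, 17.5 and 14.6 FPKM in MP replicates 1 to 3 and 0.0831, 0.0822 and 0.109 in APL replicates 1 to 3. Every MP library was thus far above every APL library, and the 3 APL libraries were all close to the lower end of what can be measured. These levels stood for 2575, 2865 and 2513 fragments before scaling in normal MPs but for only 11, 15 and 14 in APL progenitors. The APL fragments came to 40 together, with an exact 95% Poisson interval of 28.6 to 54.5 that covers counting error only. On the log2 scale the gene changed by −7.33 ± 0.15 (SE, limma adjusted p = 5.6e-09), a 161-fold difference on the log2(scaled fragments + 1) scale. Fitted on log2(FPKM + 0.1) instead, the change was −6.38, with an added value about as large as the APL levels themselves. Another gene, 9330179D12Rik, shares the locus in the deposited table and held no more than 4.51 scaled fragments in any library.

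Ccnd1, cyclin D1, the D-type cyclin of many solid tissues and tumors, was scarce in both populations. Its gene is on chromosome 7 from 144929931 to 144939831. It had 1.24, 1.35 and 1.21 FPKM in MP replicates 1 to 3 and 0.226, 0.123 and 0.129 in APL replicates 1 to 3. In fragments before scaling these were 138, 147 and 141 against 20, 15 and 11. The groups did not overlap, and the 3 MP values were close together while the APL values rested on few fragments. Its log2 change was −2.96 ± 0.26 (SE, limma adjusted p = 1.0e-05), which is 7.77-fold lower in APL progenitors.

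Ccnd3, cyclin D3, went the other way. It is encoded on chromosome 17 from 47505051 to 47599689 and had 67.6, 59.4 and 64.5 FPKM in MP replicates 1 to 3. In APL replicates 1 to 3 it had 81.1, 99.5 and 96.9 FPKM, each above the highest MP library. This was a log2 change of 0.53 ± 0.10 (SE, limma adjusted p = 9.9e-04), a 1.45-fold difference that stayed under the fold threshold of 1.5. With median ratio scaling it was 0.60, and without APL replicate 1, the lowest APL library, 0.62, both past the threshold. Bysl, a ribosome biogenesis gene, shares its locus in the table, and fragments could be divided between them. Bysl was lower in APL progenitors, with a log2 fold change of −0.52 (adjusted p = 0.0036 from limma).

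The makeup of the D-type cyclins therefore shifted almost entirely to cyclin D3. Per transcript length, Ccnd3 held 78.8% ± 2.51 (SD, n = 3) of the summed D-type FPKM in normal MPs and 99.7% ± 0.0912 in APL progenitors. Ccnd2 held 19.7% ± 2.37 and 0.0989% ± 0.0151, and Ccnd1 1.57% ± 0.136 and 0.178% ± 0.0865. The sum of the 3 genes, by contrast, was 84.4, 78.2 and 80.3 FPKM in MP replicates 1 to 3 and 81.4, 99.7 and 97.2 in APL replicates 1 to 3, so that the groups overlapped. Scaled fragments, unlike the FPKM shares, are not divided by transcript length, so a ratio of them does not give relative levels per length. In scaled fragments plus 1, the log2 ratio of Ccnd3 to Ccnd2 was 0.15 ± 0.24 in normal MPs and 8.01 ± 0.24 in APL progenitors (SD, n = 3). That of Ccnd1 to Ccnd2 was −4.21 ± 0.06 and 0.16 ± 0.59, and that of Ccnd1 to Ccnd3 −4.36 ± 0.18 and −7.85 ± 0.61. For each of these 3 ratios the groups did not overlap. A two-sided exact permutation test gave p = 0.1 for each, the smallest that 3 against 3 libraries allow, and 0.1 after adjustment over the 6 paralog pairs compared.

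**Figure D2:**
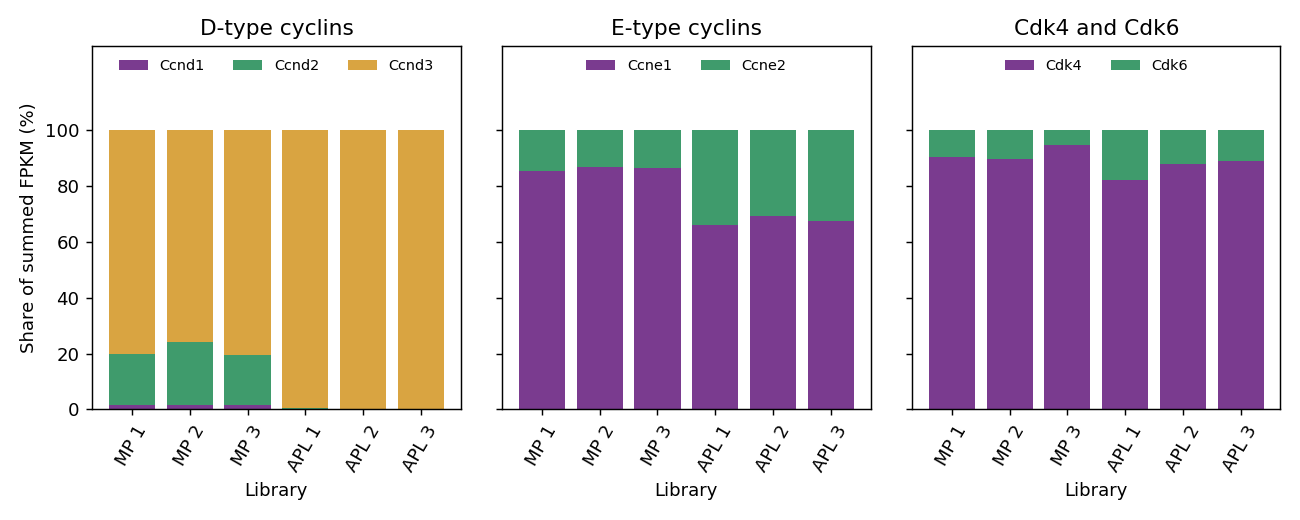
Share of each paralog in the summed FPKM of its family (%), by library, for the D-type cyclins, the E-type cyclins, and Cdk4 with Cdk6. Ccnd2 fills 18.1% to 22.4% of the D-type bar in normal MPs and at most 0.112% in APL progenitors, and Ccne2 fills 13.3% to 14.9% of the E-type bar in normal MPs and 30.7% to 33.9% in APL progenitors.

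Ccne1, cyclin E1, the activator of Cdk2 at the start of S phase, was downregulated in APL progenitors. Its gene covers chromosome 7 from 38097984 to 38107490 and shares its locus with no other gene of the table. It had 36.6, 38.2 and 41.0 FPKM in MP replicates 1 to 3 and 12.6, 14.1 and 13.01 in APL replicates 1 to 3. The libraries of each group were close together and the groups were well apart. Cyclin E1 changed by −1.55 ± 0.08 on the log2 scale (SE, limma adjusted p = 5.4e-07), or 2.94-fold lower in APL progenitors.

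Its paralog Ccne2, cyclin E2, on chromosome 4 from 11190433 to 11204779, did not follow. It had 6.39, 5.87 and 6.48 FPKM in MP replicates 1 to 3 and 6.45, 6.24 and 6.34 in APL replicates 1 to 3, and the groups overlapped. The log2 fold change of 0.06 (95% interval −0.14 to 0.25) did not pass the test (adjusted p = 0.57 from limma), and it turned to −0.0733 with libraries scaled to the same total and to −0.0721 with voom. The interval leaves out a change of the size seen for Ccne1. Fragments of Ccne2 could be divided with Ints8, an Integrator subunit that shares its locus in the table. Ints8 held 2286 to 2911 scaled fragments per library and was lower in APL progenitors (log2 fold change −0.27, adjusted p = 0.0051 from limma). The part of such a division in the Ccne2 level was not tested. Cyclin E2 made up 13.9% ± 0.81 of the summed E-type FPKM in normal MPs and 32.4% ± 1.63 in APL progenitors (SD, n = 3). The E-type sum fell from 44.8 ± 2.36 to 19.6 ± 0.682. In scaled fragments plus 1, not divided by transcript length, the log2 ratio of Ccne2 to Ccne1 rose from −2.01 ± 0.13 to −0.40 ± 0.12. The groups did not overlap (two-sided exact permutation p = 0.1, the smallest possible).

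The kinase of the E-type cyclins, Cdk2, is encoded on chromosome 10 from 128697938 to 128705051. It had 54.3, 51.1 and 57.3 FPKM in MP replicates 1 to 3 and 49.4, 49.6 and 52.7 in APL replicates 1 to 3, with overlapping groups. Its log2 fold change was −0.08 (95% interval −0.25 to 0.09, adjusted p = 0.36 from limma). A change of over 1.5-fold lies outside this interval. With libraries scaled to the same total it was −0.21 (adjusted p = 0.011), under the fold threshold.

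The sequence upstream of these genes was read from RefSeq promoters of GRCm38, which span 250 bases before and 50 after a gene's start. The table held such windows for 6 of the 10 genes: Ccnd3 (2 starts), Ccne1, Ccnb1, Cdk2, Cdk4 and Cdk6. Both strands were searched for the E2F motif (TTTCCCGC, TTTGGCGC, TTTCGCGC or TTTGCCGC), the cell cycle homology region CHR (TTTGAA), the CCAAT box (CCAAT) and the GC box (GGGCGG). Among all 32851 windows, 2.26% held the E2F motif, 17.9% the CHR, 37.4% the CCAAT box and 35.7% the GC box. A GC box was present in the windows of 5 of the 6 genes, all but Cdk6, and a CCAAT box in those of Cdk2, Ccnb1 and Ccnd3. The E2F motif occurred only in the window of Cdk2, and the CHR in none of the 7 windows. The windows printed here are those of Ccne1, the member past the threshold that has a window, its kinase Cdk2, whose level did not pass the test, and the downstream start of Ccnd3, the member that was higher in APL progenitors. Capitals mark every match to the motifs searched.
Ccne1, chr7:38107441-38107740, minus strand: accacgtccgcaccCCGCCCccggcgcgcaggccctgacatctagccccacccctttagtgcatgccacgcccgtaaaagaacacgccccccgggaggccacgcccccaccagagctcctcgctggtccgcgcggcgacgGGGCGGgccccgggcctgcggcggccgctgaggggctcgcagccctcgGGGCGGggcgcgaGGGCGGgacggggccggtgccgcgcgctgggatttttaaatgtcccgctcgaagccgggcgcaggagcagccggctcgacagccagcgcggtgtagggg
Cdk2, chr10:128705002-128705301, minus strand: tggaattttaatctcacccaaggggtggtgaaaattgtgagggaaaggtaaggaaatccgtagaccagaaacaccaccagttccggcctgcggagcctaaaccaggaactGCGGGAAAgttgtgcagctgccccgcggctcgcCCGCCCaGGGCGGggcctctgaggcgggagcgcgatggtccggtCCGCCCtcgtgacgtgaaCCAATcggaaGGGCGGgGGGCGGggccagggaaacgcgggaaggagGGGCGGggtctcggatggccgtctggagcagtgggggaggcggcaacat
Ccnd3, chr17:47593217-47593516, plus strand: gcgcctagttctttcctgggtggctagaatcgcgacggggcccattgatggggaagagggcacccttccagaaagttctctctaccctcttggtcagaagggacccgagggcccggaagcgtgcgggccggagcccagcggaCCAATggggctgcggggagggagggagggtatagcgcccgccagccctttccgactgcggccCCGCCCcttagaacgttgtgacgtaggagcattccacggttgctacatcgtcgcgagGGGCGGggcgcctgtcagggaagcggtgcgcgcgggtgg

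The Ccne1 window held 4 GC boxes and no other match, and 76.0% of its bases were G or C. In the Cdk2 window, the run GCGGGAAA is the E2F motif TTTCCCGC read on the other strand, and 6 GC boxes and 1 CCAAT box follow it. The Ccnd3 window held 1 CCAAT box and 2 GC boxes. These are matches of letters only, and other forms of the motifs were not searched.

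Cdk4, the kinase partner of the D-type cyclins and the most abundant member per transcript length in both groups, was modestly lower in APL progenitors. Its gene lies on chromosome 10 from 127063535 to 127067288. It had 290, 288 and 347 FPKM in MP replicates 1 to 3 and 211, 232 and 238 in APL replicates 1 to 3, without overlap. Cdk4 changed by −0.43 ± 0.11 on the log2 scale (SE, limma adjusted p = 0.0066), a 1.35-fold difference under the fold threshold. MP replicate 3 was the highest library.

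Cdk6, the other D-type cyclin kinase, is encoded on chromosome 5 from 3341004 to 3531008. It had 30.8, 33.5 and 19.5 FPKM in MP replicates 1 to 3 and 46.6, 31.9 and 29.9 in APL replicates 1 to 3. The groups overlapped, with MP replicate 3 as the lowest library and APL replicate 1 as the highest. The log2 fold change of 0.40 (95% interval −0.10 to 0.89) did not pass the test (adjusted p = 0.14 from limma), and it was 0.16 without MP replicate 3 and 0.21 without APL replicate 1. Without MP replicate 2 it was 0.55 with an adjusted p of 0.049, under the fold threshold. Both libraries also deviated from their group over many genes, by transcript length. In MP replicate 3, genes with a longest coding transcript over 8 kb lay at a median of −0.34 on the log2 scale against the other MP libraries and those up to 2 kb at 0.32. In APL replicate 1 the medians were 0.17 and −0.14. Cdk6 deviated in the same directions, by −0.71 in MP replicate 3 and 0.57 in APL replicate 1, although its longest coding transcript in the annotation used is 3735 bases. Cdk4, with 2053 bases, deviated by 0.34 and −0.17. The part of these deviations in the results of both kinases was not tested.

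**Figure D3:**
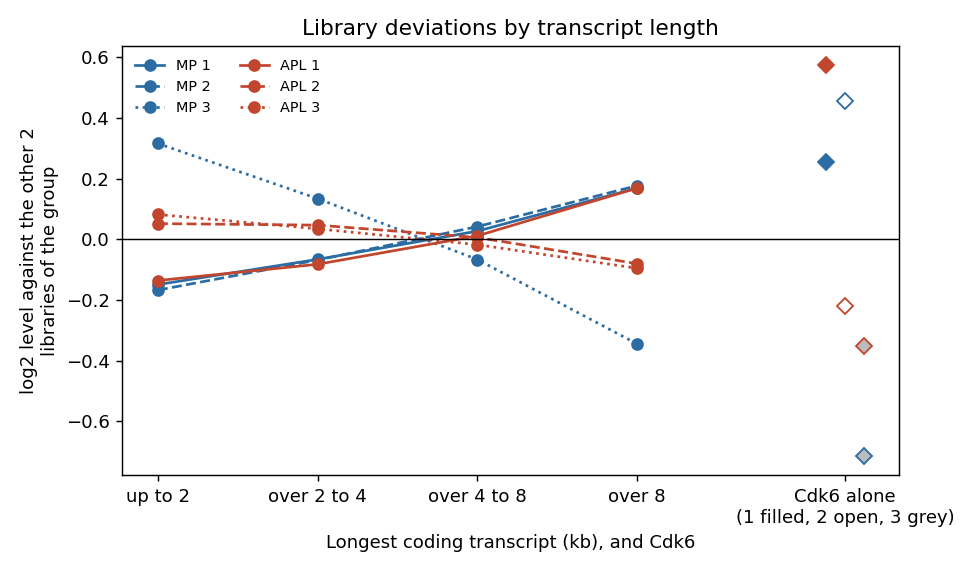
Median log2 level of each library against the other 2 libraries of its group (y axis), for genes binned by the longest coding transcript in kb (lines), and for Cdk6 alone (diamonds). MP replicate 3 runs from 0.32 for the shortest bin to −0.34 for the longest, and its Cdk6 value lies at −0.71.

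The share of Cdk6 in the summed FPKM of Cdk4 and Cdk6 was 9.60%, 10.4% and 5.31% in MP replicates 1 to 3 and 18.1%, 12.1% and 11.2% in APL replicates 1 to 3. The groups did not overlap, but the nearest values, 10.4% and 11.2%, were close. The log2 ratio of Cdk6 to Cdk4 was −2.51 ± 0.61 in normal MPs and −1.68 ± 0.44 in APL progenitors (SD, n = 3). That of Cdk2 to Cdk4 was −1.65 ± 0.12 and −1.30 ± 0.06. Both ratios were taken on scaled fragments plus 1, which, unlike the FPKM shares, are not divided by transcript length. Each pair had a two-sided exact permutation p = 0.1, the smallest possible, and no overlap between the groups. The difference in the ratio of Cdk6 to Cdk4 was 0.83, but 0.48 without MP replicate 3 and 0.58 without APL replicate 1.

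Ccna2, cyclin A2, which activates Cdk2 in S phase and Cdk1 later, was downregulated. Its gene covers chromosome 3 from 36564865 to 36573038. It had 80.8, 85.7 and 91.7 FPKM in MP replicates 1 to 3 and 46.0, 47.6 and 46.8 in APL replicates 1 to 3. The APL values were nearly alike and all well under the lowest MP value. Cyclin A2 changed by −0.86 ± 0.07 on the log2 scale (SE, limma adjusted p = 7.2e-06), or 1.81-fold lower in APL progenitors. Exosc9, an exosome subunit that shares its locus in the table, had a log2 fold change of −0.12 (adjusted p = 0.20 from limma).

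Ccnb1, cyclin B1, the mitotic partner of Cdk1, had a smaller decrease. It is encoded on chromosome 13 from 100778739 to 100786486. It had 57.6, 63.6 and 70.6 FPKM in MP replicates 1 to 3 and 50.1, 50.02 and 51.3 in APL replicates 1 to 3. The groups did not overlap, and the MP libraries were more spread than the APL libraries. Cyclin B1 changed by −0.31 ± 0.08 on the log2 scale (SE, limma adjusted p = 0.0097), a 1.24-fold difference under the fold threshold.

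**Figure D4:**
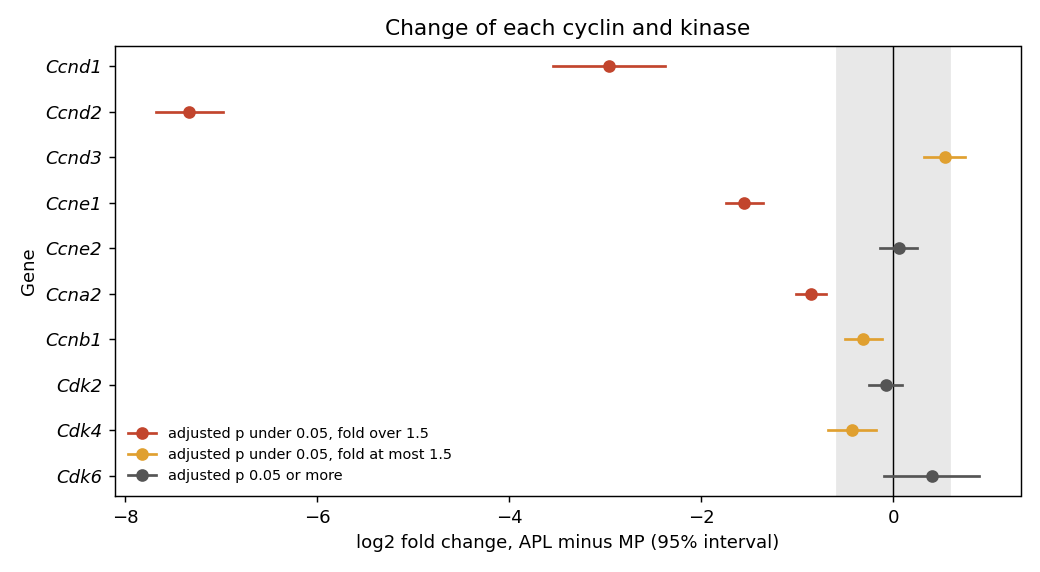
Log2 fold change of each member (APL minus MP, limma) with its 95% interval, and a grey band for changes of up to 1.5-fold. Ccnd2 (−7.33), Ccnd1 (−2.96), Ccne1 (−1.55) and Ccna2 (−0.86) lie outside the band on the left, and Ccnd3 (0.53) is the member furthest to the right.

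Ordered by mean FPKM, the members ran in normal MPs from Cdk4 (309) through Ccna2 (86.1), Ccnb1 (63.9), Ccnd3 (63.8), Cdk2 (54.2), Ccne1 (38.6), Cdk6 (27.9), Ccnd2 (15.9) and Ccne2 (6.25) to Ccnd1 (1.27). Of these neighbors, only Ccnb1 and Ccnd3 overlapped between libraries. In APL progenitors the order was Cdk4 (227), Ccnd3 (92.5), Cdk2 (50.6), Ccnb1 (50.5), Ccna2 (46.8), Cdk6 (36.1), Ccne1 (13.2), Ccne2 (6.34), Ccnd1 (0.160) and Ccnd2 (0.0915). Cdk2 overlapped with Ccnb1 there, and Ccna2 with Cdk6. Ccnd3 moved from the fourth place to the second, and Ccnd2 from the eighth to the last. FPKM depends on the transcript length that was assigned to each gene, so the order between genes holds only as far as those lengths do.

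Other cyclins and kinases of the cell cycle were examined as a list of 6, of which 3 could be tested. Ccnb2, cyclin B2, fell with a log2 fold change of −0.71 (adjusted p = 2.9e-04 from limma), and neither Ccnf nor Cdk1 passed. Thus 1 of 3 was called lower and 0 higher, beside 24.4% and 21.7% of all genes tested. The median log2 fold change of the 3 was −0.16. Cdk1, the mitotic kinase, had 44.0, 41.3 and 50.5 FPKM in MP replicates 1 to 3 and 40.6, 37.8 and 43.8 in APL replicates 1 to 3. Of 30 transcriptional and atypical cyclins and kinases tested, 5 rose, 5 fell and 20 did not pass, beside 21.7% of all genes tested that were called higher and 24.4% called lower, and the median log2 fold change was −0.03. Without the fold threshold 7 passed upward and 11 downward, beside 29.7% and 37.3% of all genes. Cdk18 rose by 2.23 on the log2 scale, from 1.46 ± 0.0722 to 7.03 ± 0.904 FPKM, and Ccnjl rose by 1.25. Ccno, a cyclin of multiciliated cells, had 2, 0 and 0 fragments in normal MPs and 16, 15 and 13 in APL progenitors, at least 5.72-fold higher when set against 3 fragments per library. Cdk17 fell by 1.07 and Ccnt2, a cyclin of the elongation kinase Cdk9, fell by 0.67. Cdk14 had 41, 39 and 50 fragments in normal MPs but 1, 2 and 0 in APL progenitors, at least 12.3-fold lower. Ccno and Cdk14 met the filter on low values only through the group where each was high. No support is drawn from their calls.

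The CDK inhibitors hold back cyclin-dependent kinases, those of the INK4 class acting on Cdk4 and Cdk6. Of 7, 6 were tested, and 4 rose, 1 fell and 1 did not pass, with a median log2 fold change of 1.51. Over all genes tested, 21.7% were called higher and 24.4% lower, with a median of −0.10. Cdkn2a, which encodes the INK4 inhibitor p16 and the Arf protein, had no fragment in any MP library and 94, 137 and 69 fragments in APL replicates 1 to 3. This was at least 37.6-fold higher against 3 fragments per library. Cdkn2a met the filter on low values only through the APL libraries, so its direction was fixed by the filter. It is counted in the 4 that rose and in the median, and no support is drawn from its call. Cdkn1c, which encodes p57, went from 0.342 ± 0.112 to 1.74 ± 0.339 FPKM (log2 fold change 2.29). Cdkn1a, which encodes p21, went from 4.50 ± 0.330 to 19.5 ± 1.72 FPKM (log2 fold change 2.14). Cdkn2d, the INK4 inhibitor p19, fell from 16.5 ± 3.05 to 8.74 ± 0.154 FPKM (log2 fold change −0.89). Among these calls the largest adjusted p, that of Cdkn2d, was 7.9e-04 in limma. The median is the same with Cdkn2a at its bound, since it stays the highest value.

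Downstream of the D-type kinases, 2 of 13 RB and E2F genes rose, 3 fell and 8 did not pass, and the median log2 fold change was −0.20. At an adjusted p under 0.05 alone, 3 passed upward and 6 downward. These counts, and those of the phosphatases and ubiquitin ligases that follow, stand beside 21.7% of all genes called higher and 24.4% called lower. On adjusted p alone these shares were 29.7% and 37.3%. The pocket protein gene Rbl2 rose by 0.82 on the log2 scale and the repressor E2f7 by 0.67. The repressor E2f6 went from 32.9 ± 1.32 to 11.6 ± 0.522 FPKM, the activator E2f2 fell by 1.27 and the E2F partner Tfdp2 by 1.19. Rb1 itself had a log2 fold change of −0.20 and did not pass (adjusted p = 0.066 from limma). Of 7 phosphatases, kinases and CKS proteins that act on CDKs, Cdc25b, an activating phosphatase, rose by 0.76 and 6 did not pass. Most of these failed on fold only, since 3 of the 7 were higher and 3 lower by adjusted p alone. Of 11 genes of cyclin ubiquitin ligases, Fbxo31 rose by 0.79 and Ube2c fell by 0.79. Fbxw7, which marks cyclin E for degradation, fell by 0.74, and 8 genes did not pass. By adjusted p alone, 3 of the 11 were higher and 5 lower. Rbl2, Fbxo31 and Cdt1 lie on chromosome 8, where the median log2 fold change of 778 genes tested was 0.48. So do Tfdp1, Mcm5, Gins2 and Cdk10, which were higher by adjusted p alone. Skp2 and Rbx1, also higher by adjusted p alone, lie on chromosome 15, where the median of 563 genes was 0.46. The 3 ligase genes that were higher thus all lie on chromosome 8 or 15. E2f4, on chromosome 8 as well, was lower by adjusted p alone (log2 fold change −0.42). The part of these shifts in the values of these genes was not tested. No cyclin or kinase among the 10 members lies on chromosome 8 or 15, the chromosomes with the highest medians.

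Genes that act in S phase and mitosis were read beside the members, as RNA levels and not as a measure of cycling. Of 19 S phase E2F targets, 2 rose, 3 fell and 14 did not pass, with a median log2 fold change of −0.29. Without the fold threshold 5 passed upward and 12 downward. Of these 5, Mcm5, Cdt1 and Gins2 lie on chromosome 8. The replication genes Cdc45 and Cdt1 rose by 0.80 and 0.62, and Tk1, Pola1 and Rrm1 fell by 0.86, 0.83 and 0.59. Of 15 mitotic genes, none rose, 5 fell and 10 did not pass, with a median of −0.43, and without the fold threshold 12 passed downward. Over all genes tested, 21.7% were called higher and 24.4% lower, and without the fold threshold 29.7% and 37.3%. Cenpa, the centromeric histone, fell by 1.02, Top2a, a topoisomerase, by 0.75 and Hmmr, a spindle protein, by 0.70. Mki67, the gene of the proliferation antigen Ki67, had 47.5, 49.0 and 33.3 FPKM in MP replicates 1 to 3 and 48.8, 39.2 and 39.4 in APL replicates 1 to 3. It did not pass (adjusted p = 0.80 from limma). MP replicate 3, its lowest MP library, and APL replicate 1, its highest APL library, are those that deviated by transcript length. The part of that deviation in the Mki67 result was not tested.

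**Figure D5:**
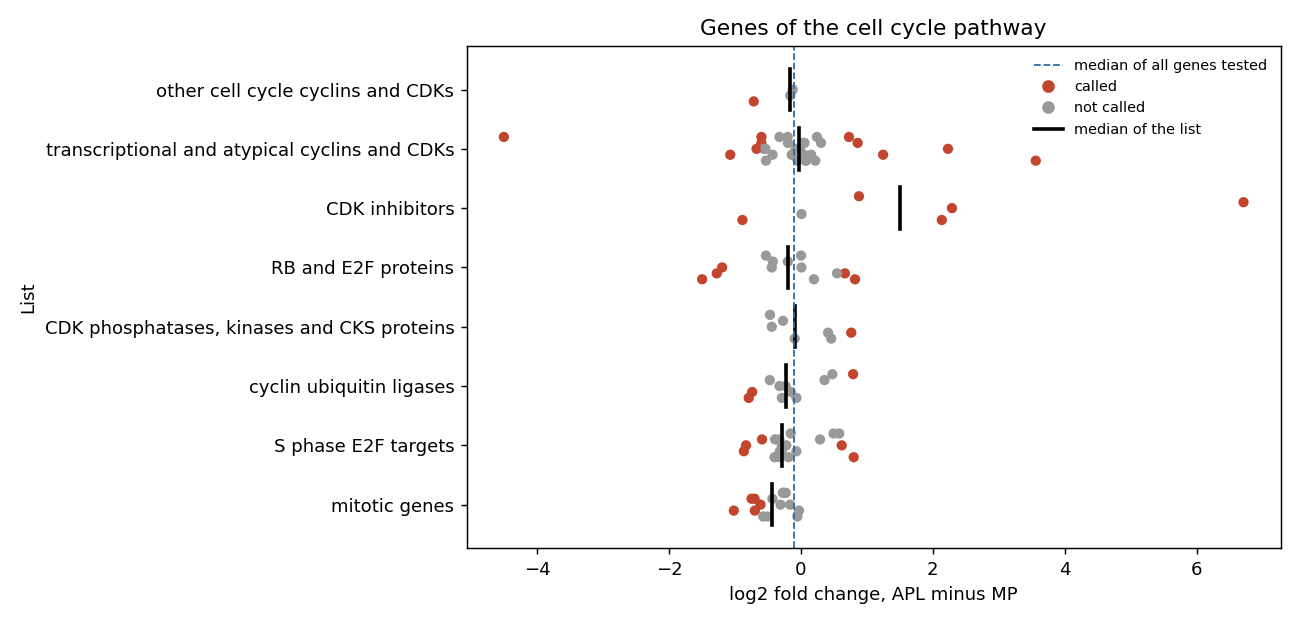
Log2 fold change (APL minus MP) of each tested gene in 8 lists of the cell cycle pathway, with called genes in red, the median of a list as a black bar and the median of all genes (−0.10) as a dashed line. The CDK inhibitors lie mostly to the right of the line (median 1.51) and the mitotic genes mostly to the left (median −0.43).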

How the data were processed

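RNA-seq of 6 libraries (normal MPs and c-Kit+ APL progenitors, 3 each) was analysed from a table that the authors deposited. It holds FPKM values computed by the authors and a fragment signal per gene, an estimated number of fragments multiplied by the authors with one scaling factor per library. Of the values above 0, 81.5% to 85.9% per library were whole fragments within 0.01 after the factor was removed, so no count test was run, and limma replaced it. The submitters' processing notes name CASAVA 1.8, TopHat2 2.0.6 and mm10, whereas the study's methods name STAR on mm9, HTSeq-count and DESeq2. The loci follow mm10, since 99.6% of 16361 matched genes overlap their RefSeq gene on GRCm38. Use of strand in counting is not given in the sources used here.

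Genes with at least 1 scaled fragment in at least 3 libraries were tested with limma 3.58.1 (trended eBayes) on the log2 of scaled fragments plus 1, which understates changes of low genes. Calls needed an adjusted p under 0.05 and a fold over 1.5. Paralog ratios were tested by exact permutation over libraries, two-sided. The fit was tested on simulated data. Members and lists were chosen with earlier results of these data known. In each list, up to 3 called genes in each direction with the largest change were named; Rb1, Ccnf, Cdk1 and Mki67 were added after their values were seen. Alternatives covered the pseudocount, filters, scaling, FPKM, voom, the replicate block, thresholds and each library left out. If the biological replicates share a source, p-values measure only the spread between these libraries. Transcript lengths came from GENCODE vM1, for 92.3% of genes tested, and gene coordinates and promoters from RefSeq (GRCm38.p6).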

Additional observations from a re-analysis of the deposited data

How the results depend on the processing

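The alternatives with edgeR and DESeq2 had been planned for whole fragments and were not run, because the share of whole values was too low. Under the others, Ccnd1, Ccnd2, Ccne1 and Ccna2 stayed called downward in all that kept the thresholds. The number called downward was 4 throughout, except 3 with a fold over 2 and 6 with no fold threshold. The number called upward was 0, except 1 (Ccnd3) with median ratio scaling, with no fold threshold, and without APL replicate 1, so 0 to 1 with a library left out. The log2 fold change of Ccnd3 was 0.60 with median ratio scaling and 0.47 to 0.62 with a library left out. That of Ccne2 turned to −0.0733 with the same total and −0.0721 with voom. Both settings moved the median of all genes by −0.13 and made downward genes 61.4% and 60.9% of calls, against 52.9% (49.0% with median ratio scaling). The difference in the log2 ratio of Ccnd3 to Ccnd2 was 7.86, and 7.53 with a pseudocount of 5 and 6.91 with FPKM. That of Ccnd1 to Ccnd3 was −3.49, and −2.95 with FPKM. The pseudocount with FPKM was 0.1, close to the APL levels of Ccnd2 (0.0822 to 0.109) and Ccnd1 (0.123 to 0.226). The part of this added value in the 2 differences was not tested. The replicate block gave 4 members downward and 0 upward and changed no call, although the adjusted p of Cdk6 (log2 fold change 0.40) became 0.011 against 0.14 without the block. Deviations of same-numbered libraries correlated at 0.26, −0.13 and 0.25, so the numbers were not taken as pairs, and not every library correlated best with its own number. In APL progenitors, depth limits only Ccnd1 and Ccnd2, at 11 to 20 fragments per library.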
